A study of Mus musculus with 9 samples.

Results

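The genes described here encode the working parts of the lysosome, the acidic compartment in which macrophages digest what they take up. A list of 50 genes was matched by symbol to the 34866 Ensembl gene identifiers of the deposited tables, and all 50 were found. The list holds 10 cathepsins, 18 other hydrolases and their cofactors, 6 lysosomal membrane proteins, 13 subunits of the vacuolar proton pump (V-ATPase) and 3 transcription factors of the MiT/TFE family. The genes were listed by the function of their products and not by a threshold on these measurements, but the list was drawn up with earlier results of these data known.

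Messenger RNA was sequenced from cultured primary mouse macrophages in 9 samples, 3 in each of 3 oxygen conditions. The standard group was cultured for 7 days in standard oxygen, the acute group was taken from standard oxygen into 1% oxygen for 3 hours, and the chronic group was cultured for 7 days in 1% oxygen. The medium of all groups was alpha-MEM plus serum and L929-conditioned medium, a source of macrophage growth factor. The acute and chronic groups thus differ both in the time spent in low oxygen and in the culture that preceded it. The labels give no strain, genotype, age or sex of the animals and do not say whether replicates came from separate animals, so p-values measure only the spread between these samples. Values are TPM, a length-corrected share of each library's transcripts that keeps no record of sequencing depth.

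Lysosomal hydrolases are made as inactive precursors, are sorted to the lysosome by mannose 6-phosphate tags, and work at acidic pH. The V-ATPase makes that acidity: its peripheral V1 sector splits ATP and its membrane V0 sector moves protons into the lumen. TFEB, TFE3 and MITF are related transcription factors that enter the nucleus when nutrients are scarce and activate many lysosomal genes through an E-box known as the CLEAR element. In macrophages the lysosome also degrades engulfed dead cells and processes antigen.

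The 9 libraries carry codes in their descriptions that are shared by 1 library of each group, called X, Y and Z here, and values below are given in the order X, Y, Z. Libraries with the same code deviated together from their group means, and the 3 code Z libraries stood apart from the other 6. These deviations speak only to the match of code Z, and whether X goes with X and Y with Y was not tested. Macrophage markers were present throughout, with all 8 markers of the list above 1 TPM and a summed level of 60192 to 68595 TPM in the standard group, 54724 to 72274 TPM in the acute group and 59999 to 65914 TPM in the chronic group. Nearly all of that sum was Lyz2, which encodes lysozyme, and the other markers did not all keep their level. Chronic against standard, Itgam (760 ± 41.2 and 535 ± 78.2 TPM; SD, n = 3 each) and Cx3cr1 passed as higher with the code as a block, which compares libraries of the same code, at limma adjusted p of 0.0413 and 0.0111. The groups did not overlap for Itgam, nor for Csf1r, at 699 ± 106 and 470 ± 38.7 TPM (limma adjusted p 0.0541 with that block). Those of Cx3cr1 overlapped, at 14.7, 12.7 and 116 TPM in the chronic group and 4.74, 3.74 and 57.6 TPM in the standard group. Its limma adjusted p without a block was 0.55, and code Z was highest in each group. Adgre1 was lower in 3 of 3 code pairs, at 413 ± 140 and 542 ± 48.1 TPM (limma adjusted p 0.125 with that block). So was Spi1, at 211 ± 30.2 and 245 ± 36.6 TPM. Its limma adjusted p was 0.0739 with that block and 0.0427 with the block and all 9 samples in 1 fit. Fcgr1 was also lower in 3 of 3 pairs, at -0.0, -0.04 and -0.96, so chiefly in code Z. Mertk went both ways, with 29.0, 33.3 and 2.59 TPM in chronic and 25.9, 27.6 and 3.37 TPM in standard libraries. Fibroblast, dendritic cell and lymphocyte markers (6, 5 and 5 genes) were all under 1 TPM in all libraries. The 6 neutrophil markers summed to 2.41 to 4.72, 3.48 to 4.76 and 1.76 to 2.93 TPM in the standard, acute and chronic groups, and 3 of them were under 1 TPM in all libraries. Among them Ngp averaged 2.56, 2.44 and 0.11 TPM, without overlap between chronic and the other groups (chronic against standard, limma adjusted p 0.0767 with that block), and Camp averaged 0.832, 0.709 and 1.82 TPM. The part of other cells or of macrophage state in the results was not tested. In bulk samples, fewer cells of a type and less RNA per cell cannot be told apart.

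In chronic hypoxia the lysosomal genes did not move one way. Against standard oxygen, the glycosidases Manba and Man2b1 and the cathepsins Ctsc and Ctss were higher, while the aspartic protease Ctsd and 3 V1 subunits of the proton pump, above all Atp6v1b2, were lower. In the limma fit without a block (called unblocked here), 1 of the 50 members passed a Benjamini-Hochberg adjusted p of 0.05 (Manba), 8 had an unadjusted p under that value (against 2533 of all 11067 genes tested), and 2.69% of all genes were called. With the sample code as a block, 12 members (24.0%) passed, 6 higher and 6 lower, where 18.4% of all genes were called, 15.1% higher and 3.3% lower. Without any model, the chronic and standard groups did not overlap for 4 members as higher (8.0%, against 24.2% of all genes) and 8 as lower (16.0%, against 5.39%). In 3 of 3 code pairs the chronic library was higher for 13 members (26.0%, against 46.9% of all genes) and lower for 18 (36.0%, against 12.6%).

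This split depended on the scale. The median gene was 0.16 higher in log2(TPM + 1) in chronic hypoxia than in standard oxygen, and the median member was -0.05, with 14 of 50 members above the median gene. When libraries were rescaled so that the median gene did not move (median of ratios) and the code was kept as a block, 14 members passed, 2 higher and 12 lower, where 11.5% of all genes were called, 5.62% higher and 5.87% lower. Ctsc and Manba were then the 2 higher. The 12 lower were Ctsb, Ctsd, Ctsl, Pla2g15, Tpp1, Cd63, Atp6v0c, Atp6v1b2, Atp6v1d, Atp6v1e1, Atp6v1h and Atp6ap2.

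**Figure D1:**
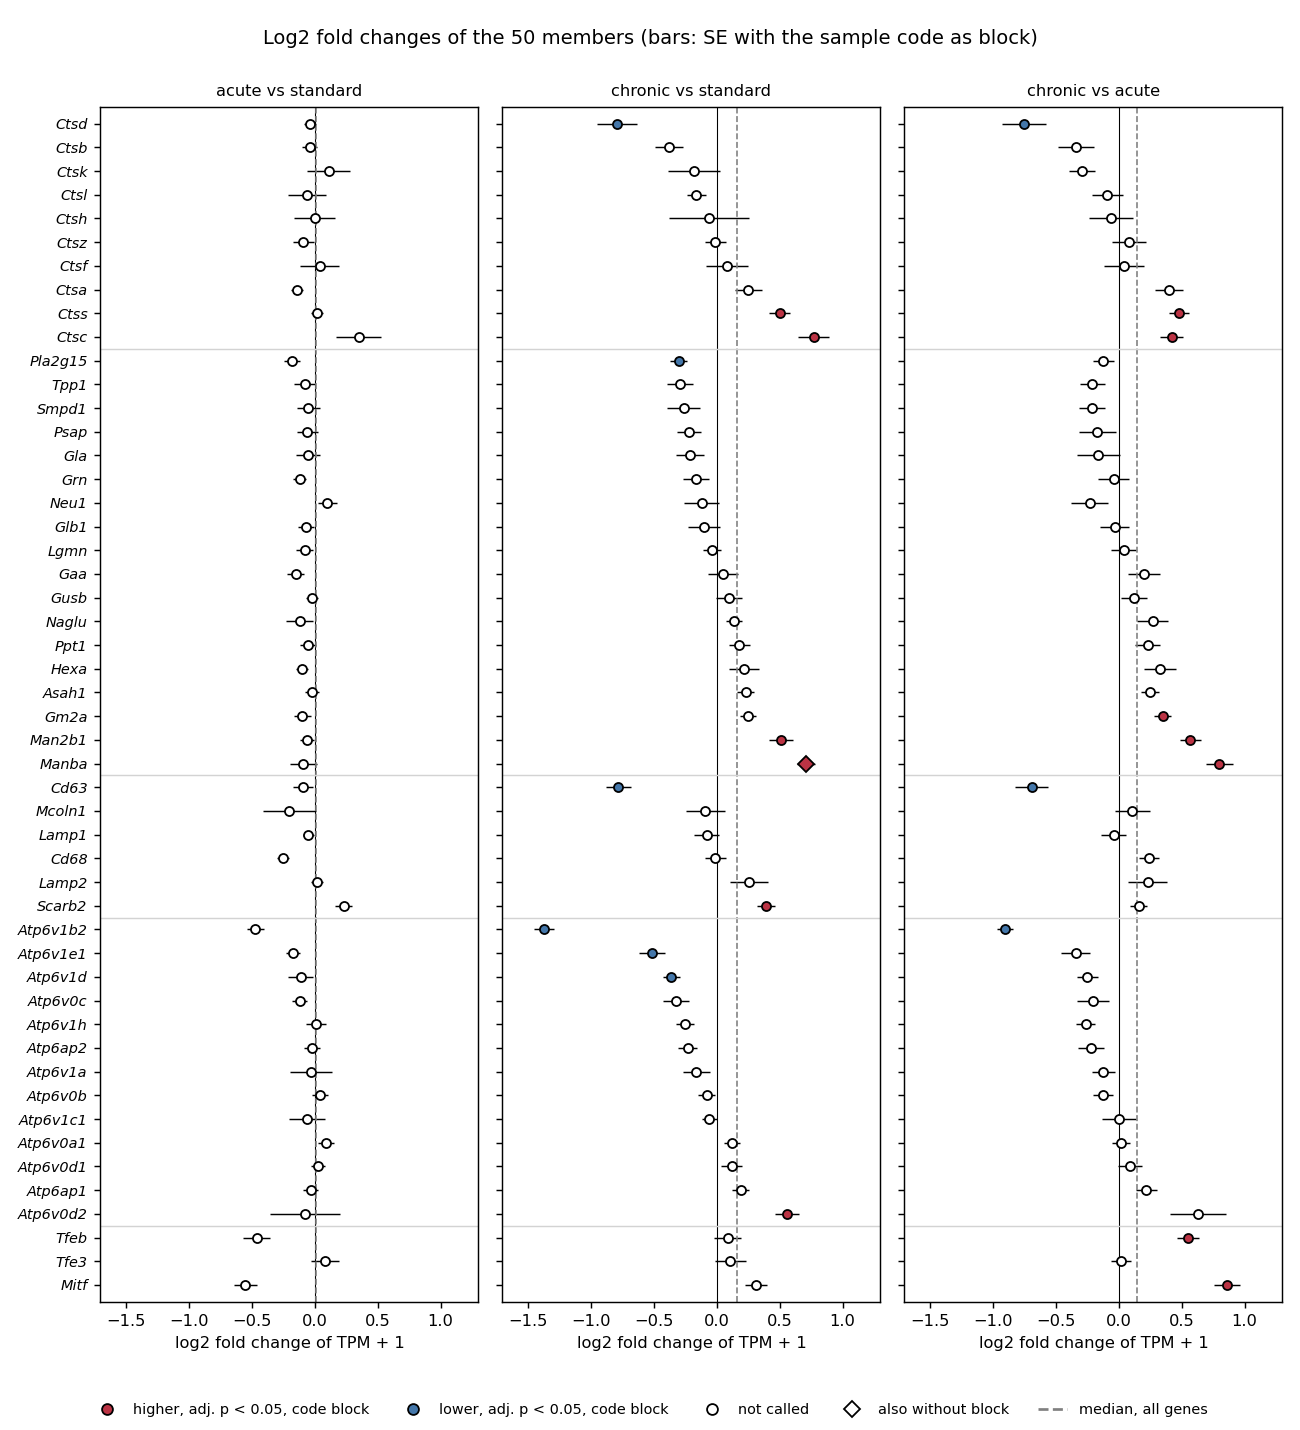
Log2 fold changes of TPM + 1 for the 50 members in the 3 comparisons, grouped as cathepsins, other hydrolases, membrane proteins, V-ATPase and MiT/TFE factors from top to bottom. Bars are the standard errors with the sample code as block, filled points passed an adjusted p of 0.05 with that block, the diamond also without it, and the dashed line is the median of all genes tested. In the chronic against standard panel 6 members are filled red and 6 blue, and none is filled in the acute panel.

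Acute hypoxia left the level of most members close to that in standard oxygen, with 49 of 50 log2 fold changes under 0.5 in size. No member passed in the limma fit without a block (2 had an unadjusted p under 0.05, against 785 of 10987 genes, and 0.0273% of all genes were called) or with the code block (8 unadjusted, against 1555 genes, and 0.71% of all genes called). The median member stood at -0.06, beside 0.01 for the median gene, and 38 of 50 fold changes were below 0. In 16 members (32.0%) the acute library was lower in 3 of 3 code pairs, against 16.9% of all genes. It was higher in 3 of 3 pairs for Scarb2 and Atp6v0a1 (4.0%, against 20.9% of all genes). The groups did not overlap for Atp6v1e1 and Tfeb, both lower (4.0%, against 4.85% of all genes), and for no member as higher (7.63% of all genes).

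Chronic against acute hypoxia gave no called member in the limma fit without a block, where 11 had an unadjusted p under 0.05 (against 2305 of 11087 genes) and 0.695% of all genes were called. With the code block 10 of 50 members passed, where 15.5% of all genes were called, 12.1% higher and 3.42% lower. The 7 higher in chronic hypoxia were Ctsc, Ctss, Gm2a, Man2b1, Manba, Mitf and Tfeb, and the 3 lower were Ctsd, Cd63 and Atp6v1b2. With rescaling as well, 8 passed, 3 higher (Man2b1, Manba, Mitf) and 5 lower (Atp6v1b2, Atp6v1d, Atp6v1h, Cd63, Ctsd), where 9.81% of all genes were called, 4.74% higher and 5.08% lower. The groups did not overlap for 8 members as higher (16.0%, against 22.3% of all genes) and 6 of 50 as lower (against 5.5%). In 3 of 3 code pairs 13 members were higher (26.0%, against 43.5% of all genes) and 11 lower (22.0%, against 12.9%). The comparisons share samples, so those with standard oxygen and those with acute hypoxia are not independent of each other.

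The MiT/TFE factors were low to moderate in level and differed among themselves. Tfe3 was the most abundant of the 3, at 57.4 to 81.5 TPM in all libraries, against 13.5 to 25.8 TPM for Tfeb and 10.7 to 28.3 TPM for Mitf. Tfeb and Mitf were lowest in acute hypoxia, and Tfe3 showed no such pattern.

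Tfeb (chr17:47737030-47792419, plus strand, GRCm38) is the family member best known as a regulator of lysosome formation. It measured 21.2, 22.9 and 20.5 TPM in the standard group, 13.5, 15.1 and 17.5 TPM in the acute group and 22.0, 21.2 and 25.8 TPM in the chronic group. All 3 acute libraries lay below all 6 others. Acute against standard, its log2 fold change was -0.46 (SE 0.121), at a limma adjusted p of 0.355 unblocked and of 0.181 with the code block, so this difference did not pass. Chronic against acute, it was 0.55 (SE 0.135), at a limma adjusted p of 0.103 unblocked, 0.0216 under the code block and 0.0556 with the block and rescaling. Chronic and standard levels of Tfeb overlapped, at 23.0 ± 2.46 and 21.5 ± 1.21 TPM (SD, n = 3 each).

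Mitf (chr6:97807052-98021349, plus strand) drives pigment cell and osteoclast genes and shares the CLEAR element with TFEB. It measured 22.4, 21.7 and 14.5 TPM in the standard group, 15.1, 13.0 and 10.7 TPM in the acute group and 25.2, 28.3 and 19.4 TPM in the chronic group. Every acute library was below the standard library of its code, but the code Z library of standard oxygen fell within the acute range. The acute against standard log2 fold change was -0.55 (SE 0.202). It did not pass at a limma adjusted p of 0.611 unblocked or 0.103 with the code block. With the block and all 9 samples in 1 fit it passed (limma adjusted p 0.0419). Chronic against acute, where the groups did not overlap, it was 0.86 (SE 0.183), at a limma adjusted p of 0.0809 unblocked, 0.0136 under the code block and 0.0227 with rescaling as well. Tfe3 gave log2 fold changes of 0.08 acute against standard and 0.11 chronic against standard, and the sign of the latter turned with rescaling (-0.07).

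**Figure D2:**
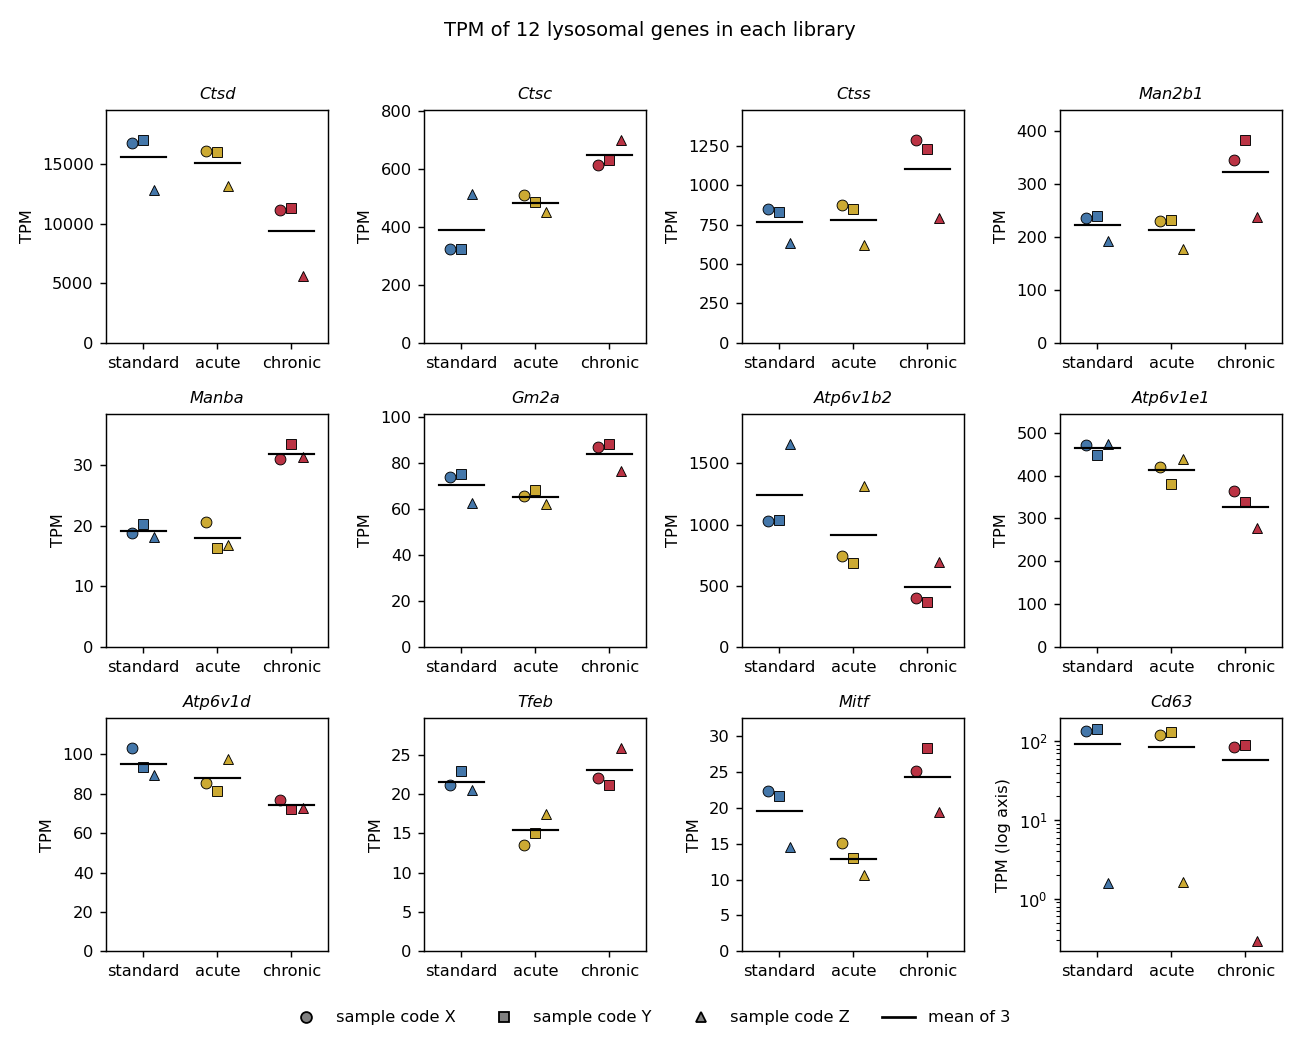
TPM of 12 lysosomal genes in each of the 9 libraries, by oxygen group on the horizontal axis; marker shapes give the sample code, horizontal lines the mean of 3, and only the Cd63 panel has a log axis. Ctsd and Atp6v1b2 are lowest in the chronic group, Manba and Ctsc highest there, Tfeb lowest in the acute group and Cd63 is at or under 1.65 TPM in each code Z library.

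The promoters of the members were searched for the core of the CLEAR element in RefSeq windows on GRCm38.p6, from 250 bases before to 50 after each start site. Windows were found for 43 of the 50 members. The palindrome TCACGTGA occurred in 6 of these 43 genes (14.0%), against 1.1% of the 27025 genes with a window, and the shorter E-box CACGTG that it contains occurred in 14 (32.6%, against 8.1%). Both are their own reverse complement, so each match is on both strands. Ctsd and Ctsa, cathepsins of which Ctsd was called lower in chronic hypoxia with the code block and Ctsa was not called, are shown with the palindrome in capitals, so that its setting can be compared.
Ctsd promoter, chr7:142387886-142387946, minus strand: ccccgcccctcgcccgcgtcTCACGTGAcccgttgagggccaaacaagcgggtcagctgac
Ctsa promoter, chr2:164833740-164833800, plus strand: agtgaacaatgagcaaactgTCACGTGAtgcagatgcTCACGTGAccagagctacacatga

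The palindrome of Ctsd starts 99 bases before the start site, and the first of the 2 in Ctsa starts 13 bases before it. The other 4 genes with it were Atp6v0d1, Atp6v1a, Gla and Mcoln1. Chronic against standard, the log2 fold changes of the 6 ran from -0.79 (Ctsd) to 0.25 (Ctsa) with a median of -0.12, and 1 of the 6 passed with the code block. Among the 29 members whose window held no CACGTG the median was 0.09 and 9 passed, 5 higher and 4 lower. Of all genes 18.4% were called with that block, 15.1% higher and 3.3% lower. The letters ACGTG or GCGTG, the core of the hypoxia response element on either strand, which also occur inside CACGTG, were found in 29 of 43 members (67.4%) and in 46.7% of all genes. A match of letters is a description of the window and not evidence of binding.

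In the proton pump, 3 of the 6 V1 subunits listed passed as lower in chronic hypoxia. These 6 (Atp6v1a, Atp6v1b2, Atp6v1c1, Atp6v1d, Atp6v1e1, Atp6v1h) had a median log2 fold change of -0.31 chronic against standard, and none was above 0, from -1.37 (Atp6v1b2) to -0.06 (Atp6v1c1). The 3 passed with the code block, where 3.3% of all genes were called lower and 15.1% higher. None passed in the unblocked fit, where 2.69% of all genes were called. The 5 V0 subunits had a median of 0.12 with 3 of 5 above 0, and 1 passed as higher (Atp6v0d2). With rescaling as well, 4 of 6 V1 subunits passed as lower, and the V0 median turned to -0.06 with Atp6v0c the only V0 subunit to pass, as lower. Of all genes 5.87% were then called lower. Outside the list, the V0 subunit Tcirg1 also passed as lower, and the V0 subunits Atp6v0a2 and Rnasek, at -0.18 and -0.15, were lower in 3 of 3 code pairs without passing. Of the 75-base stretches of Rnasek 57.02% also occur in the gene model Gm21988. The V1 subunits Atp6v1f and Atp6v1g1, also outside the list, were lower in 3 of 3 code pairs, and Atp6v1g1 did not overlap. Of all genes 12.6% were lower in 3 of 3 pairs and 5.39% were lower without overlap. Atp6v0e was not lower in every pair. No test of V1 against V0 was made.

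Atp6v1b2 (chr8:69088646-69113711, plus strand) encodes the B2 subunit of the V1 head, which helps form the ATP-binding sites. It measured 1033, 1038 and 1656 TPM in the standard group, 742, 690 and 1314 TPM in the acute group and 400, 367 and 697 TPM in the chronic group. Within each code the level stepped down from standard to acute to chronic, while code Z was highest in every group. Its chronic and standard groups did not overlap, and the log2 fold change was -1.37 (SE 0.299), the lowest of the 50 members. The limma adjusted p was 0.0686 unblocked, 0.00605 under the code block and 0.00138 without the code Z libraries. Chronic against acute it was -0.90 (SE 0.334), with pairs at -0.89, -0.91 and -0.91 and a limma adjusted p of 0.202 unblocked and of 0.00707 with the code block. Acute against standard it was -0.47 (SE 0.3), at a limma adjusted p of 0.917 unblocked, 0.0771 under the code block and 0.0282 without code Z. With the block and all 9 samples in 1 fit the limma adjusted p was 0.0256. The fits without code Z, here and below, had no block and held only the code X and Y libraries. Their p-values measure the spread between those libraries alone.

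Atp6v1e1 and Atp6v1d, subunits of the peripheral and central stalks of V1, moved the same way by less. Atp6v1e1 measured 472, 447 and 473 TPM in the standard group, 421, 380 and 438 TPM in the acute group and 365, 339 and 278 TPM in the chronic group, and none of the 3 groups overlapped. Chronic against standard its log2 fold change was -0.51 (SE 0.125), at a limma adjusted p of 0.086 unblocked and of 0.0336 with the code block. Atp6v1d measured 103, 93.7 and 89.3 TPM in the standard group, 85.5, 81.4 and 97.8 TPM in the acute group and 77.0, 72.2 and 73.0 TPM in the chronic group. The chronic libraries lay below all others. Its chronic against standard log2 fold change was -0.36 (SE 0.0963), at a limma adjusted p of 0.103 unblocked and of 0.0283 with the code block. Atp6v1h, at 82.2 ± 4.76 TPM in the chronic group and 98.2 ± 4.71 TPM in the standard group (SD, n = 3 each), did not overlap either (limma adjusted p 0.0638 with the code block, 0.0285 with rescaling as well and 0.0424 with the block and all 9 samples in 1 fit).

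Among V0 subunits, Atp6v0c, the proteolipid of the proton-carrying ring, was the most abundant pump gene, at 1917, 1904 and 2442 TPM in the standard group and 1709, 1611 and 1670 TPM in the chronic group. These groups did not overlap, but the log2 fold change of -0.32 (SE 0.135) gave a limma adjusted p of 0.223 unblocked and of 0.0898 with the code block. Of its 75-base stretches, 11.23% also occur in pseudogenes listed at 0 to 0.491 TPM. Atp6v0a1 stayed at 123 to 178 TPM in all libraries, with a chronic against standard log2 fold change of 0.12.

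Atp6v0d2, a V0 subunit isoform known from osteoclasts and macrophages, measured 18.2, 15 and 3.61 TPM in the standard group, 12.3, 10.7 and 6.74 TPM in the acute group and 25.1, 21.7 and 6.59 TPM in the chronic group. The groups overlapped through code Z, which was lowest in each. Chronic against standard the pairs were 0.45, 0.50 and 0.72, and the log2 fold change of 0.56 had a limma adjusted p of 0.663 unblocked, 0.0261 under the code block and 0.0738 with rescaling as well. The 8 osteoclast markers summed to 1001 to 1944 TPM in the standard group, 884 to 1702 TPM in the acute group and 2249 to 2801 TPM in the chronic group. Nearly all of that was Mmp9: without it the other 7 summed to 17.5 to 20.2, 16.8 to 19.5 and 19.9 to 20.5 TPM, with Calcr listed at 0 and Oscar and Ocstamp under 1 TPM in all libraries. Of these 7, Nfatc1 held most, averaging 15.1, 13.9 and 17.7 TPM, higher in the chronic group without overlap. Itgb3 averaged 2.51, 1.3 and 0.916 TPM and was lower in 3 of 3 code pairs chronic against standard. Acp5 averaged 1.2, 1.65 and 0.958 TPM, lower without overlap chronic against acute. The part of such cells in the Atp6v0d2 level was not tested.

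**Figure D3:**
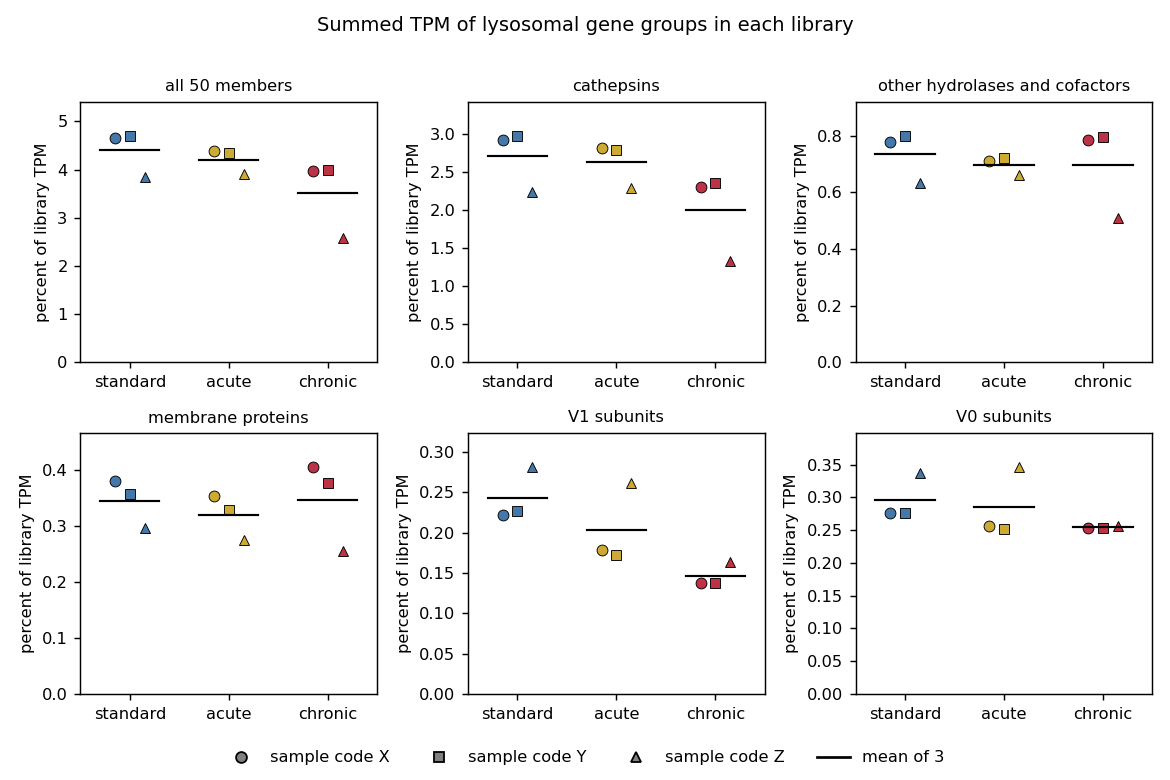
Summed TPM of 6 gene groups as a percentage of each library's total, by oxygen group; marker shapes give the sample code and lines the mean of 3. V1 subunits are lower in each chronic library than in every other library, while other hydrolases and membrane proteins of codes X and Y stay near their standard level.

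Summed over the 6 genes, V1 transcripts made up 0.222, 0.227 and 0.281% of library TPM in the standard group, 0.178, 0.172 and 0.261% in the acute group and 0.138, 0.137 and 0.164% in the chronic group. The chronic to standard ratio was 0.62, 0.603 and 0.583 in the 3 codes, against 0.92, 0.912 and 0.763 for the V0 sum. Atp6v1b2 carried much of this: without it V1 took 0.119 ± 0.00405% in the standard group and 0.0973 ± 0.00312% in the chronic group (SD, n = 3 each).

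The cathepsins, the main lysosomal proteases, held most of the lysosomal message. The 50 members together took 4.40 ± 0.477% of library TPM in the standard group, 4.20 ± 0.269% in the acute group and 3.52 ± 0.801% in the chronic group (SD, n = 3 each), and Ctsd alone took 1.56 ± 0.235%, 1.51 ± 0.165% and 0.938 ± 0.326%. Without the most abundant 3 (Ctsd, Ctsb and Psap) the others took 1.70 ± 0.0131%, 1.60 ± 0.0446% and 1.65 ± 0.187%. The lower total in chronic hypoxia thus lay mostly in these 3 genes, and it was lowest in code Z, at 2.59% against 3.96 and 4.0% in codes X and Y.

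Ctsd (chr7:142375911-142388038, minus strand), an aspartic protease active at acidic pH, measured 16838, 17051 and 12877 TPM in the standard group, 16107, 16066 and 13222 TPM in the acute group and 11163, 11368 and 5618 TPM in the chronic group. All 3 chronic libraries lay below the other 6, and acute and standard levels overlapped. Chronic against standard, the log2 fold change was -0.79 (SE 0.309), with pairs at -0.59, -0.58 and -1.20. The limma adjusted p was 0.197 unblocked, 0.0345 under the code block, 0.0285 with rescaling as well and 0.0084 without code Z, where the fold change was -0.59. Chronic against acute it was -0.75, with a limma adjusted p of 0.227 unblocked and of 0.0469 with the code block. Of its 75-base stretches 35.8% also occur in the gene model Gm49369, which was listed at 5.5 to 14.9 TPM.

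Ctsc and Ctss, cysteine proteases, went the other way. Ctsc, which activates granule serine proteases, measured 325, 325 and 514 TPM in the standard group, 510, 485 and 452 TPM in the acute group and 614, 631 and 699 TPM in the chronic group. Its chronic libraries were above all others, whereas the acute level was above standard in codes X and Y and below it in code Z. Chronic against standard its log2 fold change was 0.77 (SE 0.196), at a limma adjusted p of 0.0933 unblocked, 0.0228 under the code block and 0.0447 with rescaling as well. Acute against standard it was 0.35 with a limma adjusted p of 0.858 unblocked and of 0.444 with the code block, and 0.61 with an adjusted p of 0.018 without code Z.

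Ctss, which trims the invariant chain of MHC class II, measured 847, 828 and 631 TPM in the standard group, 875, 847 and 619 TPM in the acute group and 1285, 1227 and 792 TPM in the chronic group. Each chronic library was above its code partners, and the groups overlapped only through code Z. The chronic against standard log2 fold change of 0.50 (SE 0.222) gave a limma adjusted p of 0.242 unblocked, 0.0249 under the code block and 0.0725 with rescaling as well. Of the other 7 cathepsins none passed with the code block in any comparison. Ctsa, a carboxypeptidase that also protects beta-galactosidase and neuraminidase, measured 1078, 991 and 1381 TPM in the standard group, 988, 874 and 1264 TPM in the acute group and 1384, 1311 and 1372 TPM in the chronic group. Its chronic libraries were above all acute ones but overlapped the standard range through code Z. Chronic against acute its log2 fold change was 0.40 (SE 0.155), at a limma adjusted p of 0.219 unblocked, 0.0684 under the code block and 0.0211 without code Z. Of its 75-base stretches 13.05% also occur in Pltp or Neurl2, the latter listed at 14.0 to 32.8 TPM. Pltp was listed at 15.2, 16.8 and 1.55 TPM in the acute group and 62.3, 60.8 and 2.73 TPM in the chronic group. Ctsb, the second most abundant, stood at 7526 ± 1847 TPM in the standard group and 5940 ± 2089 TPM in the chronic group (SD, n = 3 each).

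Among the 18 other hydrolases and cofactors, 3 passed chronic against standard with the code block, Man2b1 and Manba as higher and Pla2g15 as lower. Of all genes 15.1% were called higher and 3.3% lower with that block. The median log2 fold change of the 18 was 0.00 (-0.07 to 0.20 leaving out 1 library, the highest without chronic replicate 3). Manba (chr3:135485611-135571404, plus strand) encodes beta-mannosidase, which removes mannose from the core of N-glycans. It measured 18.8, 20.3 and 18.1 TPM in the standard group, 20.6, 16.4 and 16.8 TPM in the acute group and 30.9, 33.4 and 31.3 TPM in the chronic group. The chronic libraries were well above the other 6, whose groups overlapped, and code Z did not stand apart. The chronic against standard log2 fold change was 0.71 (SE 0.0987), at a limma adjusted p of 0.0273 unblocked, 0.0115 under the code block and 0.021 with rescaling as well. Chronic against acute it was 0.80 (SE 0.119), at a limma adjusted p of 0.0501 unblocked and of 0.0158 with the code block.

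Man2b1, the lysosomal alpha-mannosidase, measured 236, 239 and 192 TPM in the standard group, 231, 232 and 178 TPM in the acute group and 346, 383 and 238 TPM in the chronic group. Each chronic library was above the others of its code, and the chronic code Z library was above all acute libraries but within the standard range. Chronic against standard its log2 fold change was 0.51 (SE 0.197), at a limma adjusted p of 0.192 unblocked, 0.0274 under the code block and 0.0789 with rescaling as well. Chronic against acute it was 0.57, with a limma adjusted p of 0.195 unblocked, 0.0174 under the code block and 0.041 with rescaling as well.

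Gm2a, the activator that presents ganglioside GM2 to hexosaminidase, measured 73.8, 75.0 and 62.7 TPM in the standard group, 65.6, 68.3 and 62.1 TPM in the acute group and 86.7, 88.1 and 76.4 TPM in the chronic group, and the chronic libraries lay above all others. Chronic against acute its log2 fold change was 0.35, at a limma adjusted p of 0.132 unblocked, 0.0318 under the code block, 0.136 with rescaling as well and 0.0291 without code Z. Pla2g15, the lysosomal phospholipase A2, measured 105, 106 and 75.2 TPM in the standard group, 90.7, 89.2 and 70.3 TPM in the acute group and 84.0, 90.9 and 58.4 TPM in the chronic group. The chronic library was below the standard one in each code, although the groups overlapped. Its chronic against standard log2 fold change was -0.30, with a limma adjusted p of 0.445 unblocked and of 0.0418 with the code block. Psap, the precursor of the saposins that help degrade sphingolipids, was the most abundant of this group at 2440 to 4263 TPM and did not pass in any comparison. Neu1, a sialidase, measured 71.2 to 112 TPM in all libraries and did not pass in any comparison either, with a chronic against acute log2 fold change of -0.23.

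The 6 membrane proteins gave 2 calls chronic against standard with the code block, Scarb2 as higher and Cd63 as lower. Of all genes 15.1% were called higher and 3.3% lower with that block. Scarb2 encodes LIMP-2, which carries glucocerebrosidase to the lysosome, and measured 47.4, 45.5 and 32.4 TPM in the standard group, 55.1, 56.4 and 36.7 TPM in the acute group and 60.4, 63.4 and 41.4 TPM in the chronic group. In each code the level was lowest in standard and highest in chronic libraries, while the groups overlapped through code Z. The chronic against standard log2 fold change of 0.39 (SE 0.216) gave a limma adjusted p of 0.337 unblocked, 0.0274 under the code block and 0.115 with rescaling as well. Lamp1, a major glycoprotein of the lysosomal membrane and the most abundant member here, measured 1049 to 1689 TPM with a chronic against standard log2 fold change of -0.08. Cd68, a macrophage glycoprotein, measured 964 to 1529 TPM with one of -0.01.

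Cd63, a tetraspanin of late endosomes and lysosomes, measured 134, 144 and 1.58 TPM in the standard group, 119, 129 and 1.65 TPM in the acute group and 83.6, 89.3 and 0.295 TPM in the chronic group. The code Z library of each group thus held almost none of this transcript. Within codes X and Y the chronic level was below standard, with pairs of -0.67 and -0.68, and that of code Z was -0.99. The code Z pair rests on 0.295 and 1.58 TPM, near the floor, where the 1 added to TPM sets much of its size. The call with the code block includes that pair. The log2 fold change of -0.78 had a limma adjusted p of 0.864 unblocked (SE 2.18), 0.0149 with the code block (SE 0.097) and 0.00747 without code Z, where it was -0.68. Its pseudogene Cd63-ps, which shares 2.09% of its 75-base stretches, was listed at 0 in all libraries.

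Code Z differed from codes X and Y in some members and not in others. In 19 of 50 members (38.0%) each code Z library was lower than all 6 others, against 5.21% of 11065 genes, and in 3 (6.0%: Ctsk, Atp6v0b and Atp6v1c1) each was higher, against 14.5%. The mean log2 difference reached 1 in size for 4 members: -5.80 for Cd63, -1.99 for Ctsf, -1.43 for Atp6v0d2 and 1.97 for Ctsk. Ctsk, a collagen-degrading cathepsin, measured 33.9, 51.0 and 45.1 TPM in the code Z libraries of the standard, acute and chronic groups and 7.57 to 11.9 TPM elsewhere. For 35 members the difference was within 0.5. Ctsk and Ctsf were singled out after their values were seen, and what the code stands for is not given in the labels. Without code Z, 13 members passed chronic against standard (8 higher, 5 lower), where 21.1% of all genes were called, 17.0% higher and 4.07% lower. Chronic against acute, 18 passed (15 higher, 3 lower), where 16.3% of all genes were called, 12.8% higher and 3.48% lower.

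**Figure D4:**
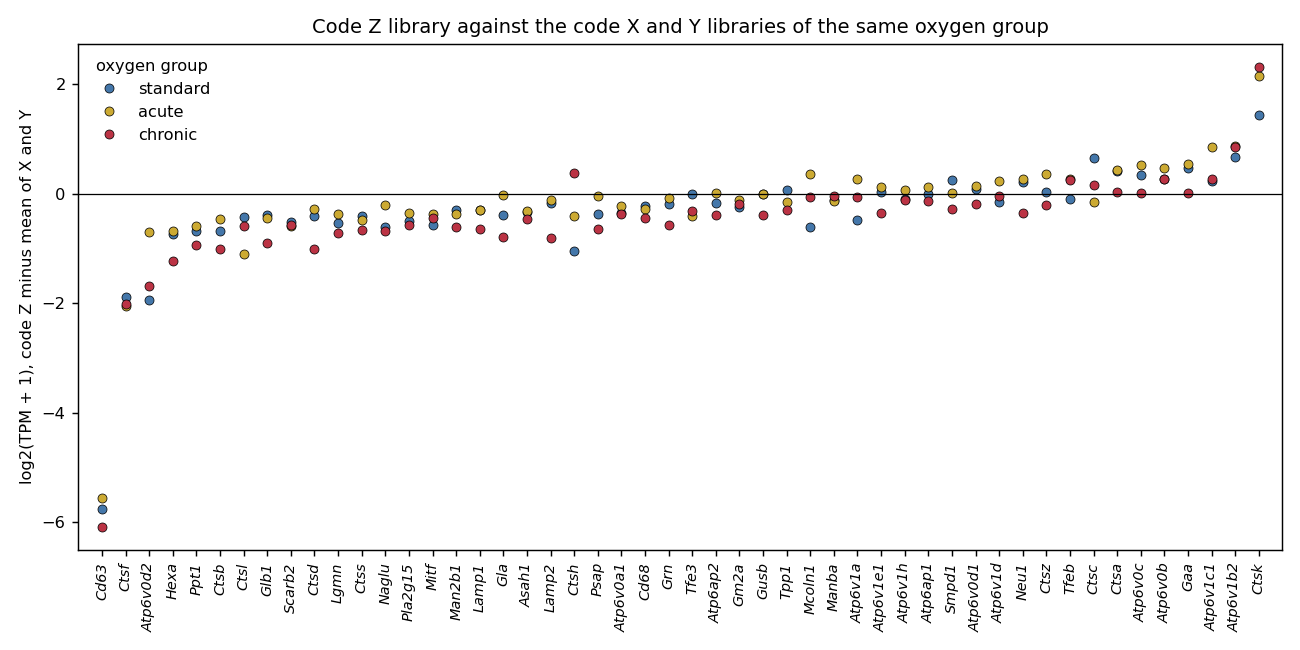
Difference in log2(TPM + 1) between the code Z library and the mean of the code X and Y libraries of the same oxygen group, for the 50 members in rising order of the mean difference. Cd63 lies near -6 and Ctsk near 2 in all 3 groups, and most members lie between -1 and 1.

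Further genes of the lysosome gave a similar mixture. Of 65 genes in 5 lists (other hydrolases, membrane and transport proteins, pump subunits, enzyme delivery and inhibitors, nutrient sensing), 63 were tested chronic against standard. In the limma fit without a block 1 passed (Nagpa, as higher), where 2.69% of all genes were called. With the code block 12 passed (19.0%, against 18.4% of all genes), 5 higher and 7 lower. Of all genes 15.1% were called higher and 3.3% lower with that block. With rescaling as well 19 passed, 2 higher and 17 lower, where 11.5% of all genes were called, 5.62% higher and 5.87% lower. Their median log2 fold change was 0.00.

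Arsb, a sulfatase that degrades glycosaminoglycans, measured 15, 16.7 and 21.9 TPM in the standard group and 30.9, 33.8 and 53.3 TPM in the chronic group, without overlap. Its log2 fold change was 1.07 (SE 0.238), at a limma adjusted p of 0.07 unblocked and of 0.00843 with the code block. Nagpa, which uncovers the mannose 6-phosphate tag, measured 41.6, 44.7 and 40.2 TPM in the standard group and 65.2, 68.3 and 58.4 TPM in the chronic group, with a log2 fold change of 0.59 and a limma adjusted p of 0.0434 unblocked and of 0.0131 with the code block. Both genes and Ids, Sgsh and Rraga also passed as higher chronic against acute with the code block, and Slc11a1 as lower. The 6 in all made 9.52% of the 63, against 15.5% of all genes. Of the 75-base stretches of Sgsh 18.94% also occur in Card14.

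Of the 6 further pump subunits none had a fold change above 0 chronic against standard, where the median gene stood at 0.16. In 3 of 3 code pairs 5 of the 6 were lower (83.3%, against 12.6% of all genes). Tcirg1 passed with the code block as lower, where 3.3% of all genes were called lower. Tcirg1, the V0 a3 isoform that is prominent in osteoclasts and macrophage lysosomes, measured 348, 369 and 392 TPM in the standard group, 215, 200 and 369 TPM in the acute group and 261, 260 and 294 TPM in the chronic group. Chronic and standard levels did not overlap (log2 fold change -0.44, limma adjusted p 0.0758 unblocked, 0.0183 under the code block). Slc11a1, a metal transporter of phagosomes, measured 690, 798 and 828 TPM in the standard group and 513, 554 and 584 TPM in the chronic group, also without overlap (log2 fold change -0.48, limma adjusted p 0.0806 unblocked, 0.0168 with that block). Among nutrient-sensing genes, Fnip2, a partner of the TFEB regulator folliculin, measured 149, 145 and 71.6 TPM in the standard group, 65.4, 60.0 and 80.3 TPM in the acute group and 74.6, 76.4 and 50.1 TPM in the chronic group. Codes X and Y were high in standard oxygen and the code Z library was not. Its chronic against standard log2 fold change was -0.80, with a limma adjusted p of 0.2 unblocked and of 0.0185 with the code block.

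Acute against standard, none of the 63 further genes passed in the limma fit without a block, where 4 had an unadjusted p under 0.05 (against 785 of 10987 genes). None passed with the code block either, where 6 had one (against 1555 genes). Without code Z, in a fit of only the code X and Y libraries and no block, 5 of 64 passed. All 5 were lower: Flcn, Fnip1, Fnip2, Rragc and Tcirg1. These are 7.81% of the genes tested, against 2.95% of all genes. The first 4 belong to the folliculin and Rag GTPase machinery that controls TFEB and TFE3 at the lysosome. The other nutrient-sensing genes tested, among them the Lamtor genes, Rraga, Mtor and Rptor, did not pass. In code Z the pairs were 0.05 for Flcn, 0.23 for Fnip1, 0.16 for Fnip2, -0.05 for Rragc and -0.09 for Tcirg1.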

How the data were processed

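TPM values per gene were deposited by the authors in 3 tables, 1 for each pair of groups; each sample had identical values in the 2 tables that hold it. FastQC, STAR and featureCounts and the build GRCm38 are named in the submitters' processing notes; versions, the annotation and the step to TPM are not given in the sources used here. Libraries were read as paired ends of 75 bases, per the labels' protocols. Sequencing depth is unknown, no counting error can be attached, and replicate spread is the only error.

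Members and lists were chosen with earlier results of these data known. Each comparison was fitted on its 6 samples with limma 3.58.1 in R 4.3.3 (lmFit, eBayes with trend, two-sided) on log2(TPM + 1), for genes of mean TPM of at least 1; p-values were Benjamini-Hochberg adjusted over all genes tested and called under 0.05. Fold changes use this log2(TPM + 1) scale and so understate the change of low genes. The fit was run on simulated data in which the code was built in as a true block. That run cannot show that the code is the right block for the real samples. Members described with values were those called without a block or with the code block, the most abundant and extreme members of each subgroup, and the MiT/TFE factors.

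The labels' replicate number and the description code both could pair samples. Deviations from group means correlated at 0.378 to 0.633 in every pair of the same code. For pairs of the same title number the correlation was -0.515 to 0.633. Each title pair of unlike codes joins a code Z library to a code Y library, so the correlations speak only to the match of code Z. Whether X goes with X and Y with Y was not tested. The block is the code, chosen from these same values, and calls with it rest on that choice. Shared 75-base stretches and gene positions came from GENCODE M21 on GRCm38, and promoter windows from RefSeq on GRCm38.p6. Alternatives were pseudocounts of 0.1 and 5, other filters, no trend, rescaling, quantile normalization, 1 fit of all 9 samples, blocks, leaving out each library, and leaving out code Z. The fit without code Z kept only the code X and Y libraries and used no block.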

Additional observations from a re-analysis of the deposited data

How the results depend on the processing

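Of 836 values of single genes under an alternative, 699 kept direction and side of the threshold, 107 came to pass, 7 no longer passed and 23 turned sign. The 836 values come from 44 pairings of a gene with a comparison. Members were named in part because they passed with the code block, and that block is among the alternatives. Part of the 107 thus follows from that choice. Sequencing depth is unknown and limits all low values.

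All genes called numbered 3 acute against standard, 298 chronic against standard and 77 chronic against acute. In that order they became 78, 2039 and 1724 with the sample code as replicate block, 57, 1272 and 1088 with that block and rescaling, 204, 2909 and 2450 with that block and all 9 samples, 0, 1 and 1724 with the title number as replicate block, 319, 2300 and 1788 without code Z, 25, 764 and 415 with all 9 samples in 1 fit, and 5, 166 and 25 without a trend. Acute against standard they became 21 with rescaling and 23 with quantile normalization; with no filter the chronic counts became 120 and 7. Leaving out 1 library gave 0 to 33, 1 to 522 and 1 to 3.1e+02 (rounded).

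Members called were 0, 1 and 0. Those counts became 0, 12 and 10 with the code block, 0, 14 and 8 with the block and rescaling, 2, 14 and 13 with the block and all 9 samples, 0, 0 and 10 with the title block, 2, 13 and 18 without code Z, and 0, 4 and 2 with all 9 samples. Chronic against standard, quantile normalization gave 0. Chronic against acute, a pseudocount of 0.1 or a mean TPM of at least 5 gave 1. Leaving out 1 library gave 0 to 4 chronic against standard (4 without chronic replicate 3) and 0 to 2 chronic against acute. In limma, 2, 8 and 11 members had an unadjusted p under 0.05, against 785 of 10987, 2533 of 11067 and 2305 of 11087 genes. The causes of these differences were not tested.

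The members' median, -0.058 acute against standard, ranged from -0.157 to -0.004 leaving out 1 library. Chronic against standard it was -0.052, -0.23 with rescaling with or without the block, -0.148 with quantile normalization, 0.048 without code Z, and -0.072 to 0.093 leaving out 1 library. Of 285 medians of the 5 subgroups under an alternative, 43 moved by more than the spread between replicates; leaving out 1 library, the chronic against standard median ranged from -0.148 to 0.084 for cathepsins, -0.069 to 0.196 for other hydrolases, -0.133 to 0.331 for membrane proteins, -0.24 to -0.09 for the V-ATPase and 0.105 to 0.212 for MiT/TFE factors.

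Signs turned as follows. When 1 library was left out, which unbalances code Z, Cd63 ranged from -2.702 chronic against standard and from -2.545 chronic against acute, and reached 0.153, 0.203 and 1.244 chronic against standard and 0.208, 0.265 and 1.335 chronic against acute. Atp6v0d2 was -0.086 chronic against standard without standard replicate 2 (up to 1.118 without others). Tfeb chronic against standard was -0.083 with rescaling, with or without the block, -0.093 with quantile normalization and -0.026 without code Z. Tfe3 was -0.006 and -0.029 acute against standard leaving out 1 library (up to 0.221); -0.07 with rescaling and -0.064 with quantile normalization chronic against standard; and chronic against acute -0.132 with rescaling, -0.1 with quantile normalization, -0.009 without code Z, and -0.115, -0.017 and -0.045 leaving out 1 library (up to 0.134).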

Other observations

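Galc, the lysosomal galactosylceramidase, was chosen after its values were seen. It was listed at 0.05, 0.0 and 0.059 TPM in the code Z libraries of the standard, acute and chronic groups, and at 20.7 to 31.4 TPM in the 6 libraries of codes X and Y. Igf2r, which encodes a receptor that sorts mannose 6-phosphate tagged enzymes, was also chosen after its values were seen and went the other way, at 12.4, 12.1 and 27.1 TPM in code Z and 1.65 to 2.18 TPM elsewhere. Both genes and Cd63 thus differed by code in every oxygen group.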
